A study of Capra hircus with 10 samples.

Results

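The cluster of miR-188, miR-660 and miR-532 is a group of miRNA genes that lie close together on the X chromosome of mammals. Its members were taken by name from the deposited counts of the lactating goat mammary gland: miR-188, miR-362, miR-500, miR-501, miR-502, miR-532 and miR-660, with any letter after miR-500 or miR-502 and either arm. The search found 12 of the 1804 miRNA listed, from 7 precursors, and 0 of them were named miR-501. Of the 12, 9 had a highest normalized count above 28 and belong to the 490 miRNA tested. The cluster was chosen by measured values, the differences of miR-660-5p and miR-188-5p between the diets in these same libraries, so its differences between diets are described here and not tested.

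A miRNA is cut from a hairpin precursor, whose 2 sides give the 5p and the 3p miRNA. Bases 2 to 8 of the mature miRNA, the seed, pair with target mRNA and lead to its decay or to less translation. miRNA genes that stand close together are often transcribed as 1 long RNA, so that their precursors are made together, while the mature miRNA are then trimmed and degraded one by one.

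All goats were Alpine goats at the peak of lactation, about 48 days after giving birth, chosen for like milk yield, number of lactations and genotype at the αS1-casein locus, and all had eaten the same hay and concentrate diet for 2 weeks. The Control goats (libraries L01, L04, L06 and L10, n = 4) ate it ad libitum during the last 48 h, and the food deprived goats (FD, libraries L02, L03, L05 and L07 to L09, n = 6) had water but no food for those 48 h. RNA came from frozen pieces of whole gland taken after slaughter, so in each library epithelial cells, stroma, vessels and blood were counted together, and fewer cells of a type cannot be told apart from less RNA per cell. Total counts ran from 4495512 to 7506955 in Control and from 5674119 to 9842009 in FD libraries.

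The RefSeq gene table of goat assembly ARS1.2 held all 7 genes. It lists 5 of them on chromosome X, in the order MIR502A, MIR660, MIR500, MIR362 and MIR502B, with 0 other genes starting between them. All 5 lie within the span of CLCN5, which encodes a chloride/proton exchanger. MIR188 and MIR532 are listed in that table without a chromosome. Positions are not given, because the counts were made on another assembly (CHIR_1.0).

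The sequences below are those of the deposited tables, 5′ to 3′, with the seed in capitals. The first 3 are the 5p miRNA of the precursors for which the cluster is named, and the next 3 are shown because they are nearly the same and their reads may not be separable.
miR-660-5p: tACCCATTgcatatcggagctgt
miR-188-5p: cATCCCTTgcatggtggaggg
miR-532-5p: cATGCCTTgagtgtaggaccgt
miR-500-3p: aTGCACCTgggcaaggattct
miR-502a-3p: aTGCACCTggacaaggattc
miR-502b-3p: aTCCACCTgggcaaggattctgaa

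The 12 miRNA had 11 different seeds, and the seed shared inside the cluster was that of miR-500-3p and miR-502a-3p. Compared base by base from the 5′ end, miR-500-3p differed from miR-502a-3p at 1 of 20 positions, outside the seed, and from miR-502b-3p at 1 of 21, inside it. miR-532-5p and miR-188-5p differed at 7 of 21 positions, 1 of them in the seed. miR-660-5p and miR-188-5p differed at 8 of 21 positions, 2 of them in the seed, so the miRNA behind the choice of this cluster do not share a seed. Of the other miRNA listed, miR-329a-3p and miR-329b-3p carry the seed of miR-362-3p, and none carries any other seed of the cluster.

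The cluster took 0.225% ± 0.0353 of all counts over Control (SD, n = 4) and 0.185% ± 0.0141 over FD libraries (SD, n = 6). Its 3 most abundant miRNA held 93.2% of the counts of the cluster over all libraries, and between 91.9% and 94.3% in each library. miR-660-5p alone held 51.6%, miR-500-3p 23.3% and miR-532-5p 18.3%. These 3 miRNA come from different precursors. They ranked 59th, 83rd and 88th in mean level among the 490 miRNA tested.

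**Figure D1:**
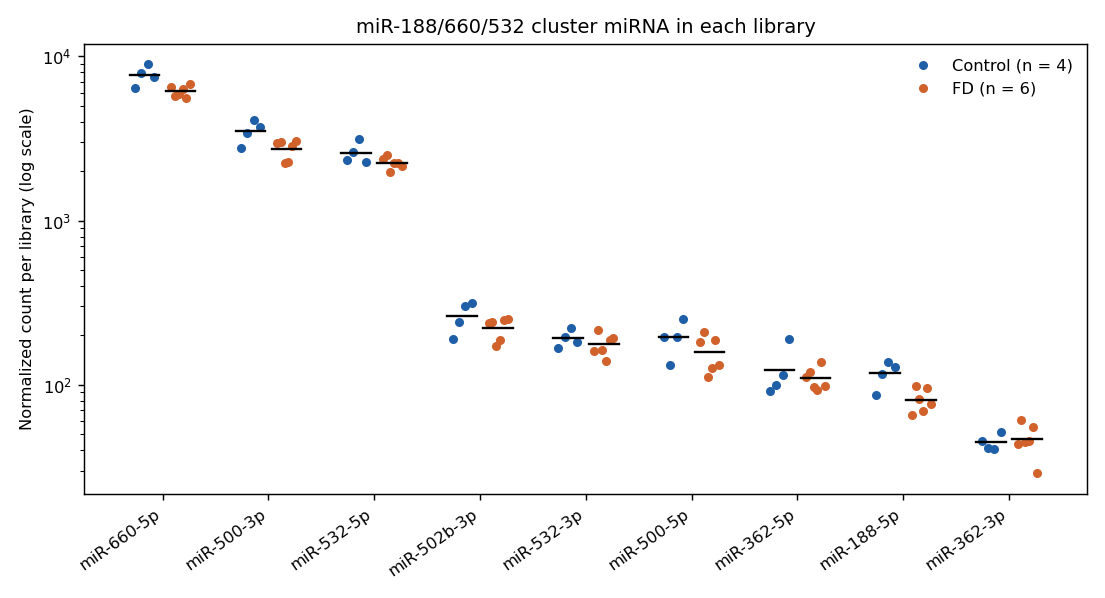
Normalized count (log scale) of the 9 cluster miRNA tested in each Control (n = 4) and FD (n = 6) library, with black lines at the group means. miR-660-5p, miR-500-3p and miR-532-5p lie above 1000, the other 6 below it, and the points of the diets overlap for each of the 9.

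Over the 10 libraries the mean level fell in the order miR-660-5p (6766 ± 1070 normalized counts, SD, n = 10), miR-500-3p (3041 ± 584), miR-532-5p (2384 ± 317), miR-502b-3p (238 ± 46.4), miR-532-3p (183 ± 25.6), miR-500-5p (173 ± 45.3), miR-362-5p (115 ± 29.9), miR-188-5p (95.6 ± 24.8) and miR-362-3p (45.9 ± 8.85). The remaining 3 were close to the limit of detection. miR-502b-5p had 5 to 20 counts per library and miR-188-3p 3 to 18. miR-502a-3p had 10 counts over all libraries, and 0 in 4 of them, where a count of 0 allows up to 3.

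Each neighbour in this order was compared within libraries. In 8 of the 11 neighbouring pairs the same miRNA was higher in 10 of 10 libraries, the smallest p that the exact sign-flip permutation test can give (p = 0.00195). miR-532-3p and miR-500-5p did not differ beyond their spread (higher in 6 of 10 libraries, exact permutation p = 0.326), nor did miR-502b-5p and miR-188-3p (6 of 10, exact permutation p = 0.148). miR-362-5p was higher than miR-188-5p in 8 of 10 libraries, by 0.27 ± 0.332 on the log2 scale (SD, n = 10, exact permutation p = 0.0293). The p were adjusted over these 11 pairs together with the 489 neighbouring pairs of the whole table, which lie much closer together. After that, 0 of the 11 pairs and 0 of the 489 (0.0%) passed 0.05. With 10 libraries and that many pairs, the smallest adjusted p was 0.0814. At an unadjusted exact permutation p under 0.05 there were 9 of the 11 pairs, beside 2.86% of the pairs of the whole table. The order was taken from these same libraries, and a short list leaves wider gaps between neighbours, so nothing is read from this difference.

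Which side of the hairpin was kept differed between the precursors. mir-188, mir-362 and mir-532 gave mostly the 5p miRNA, while mir-500 and mir-502b gave mostly the 3p miRNA. The 5p arm held 92.8% ± 0.751 of the counts of mir-532 (SD, n = 10), 90.7% ± 4.17 of those of mir-188 and 71.2% ± 4.34 of those of mir-362. It held 5.40% ± 1.07 of the counts of mir-500 and 4.71% ± 1.38 of those of mir-502b.

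**Figure D2:**
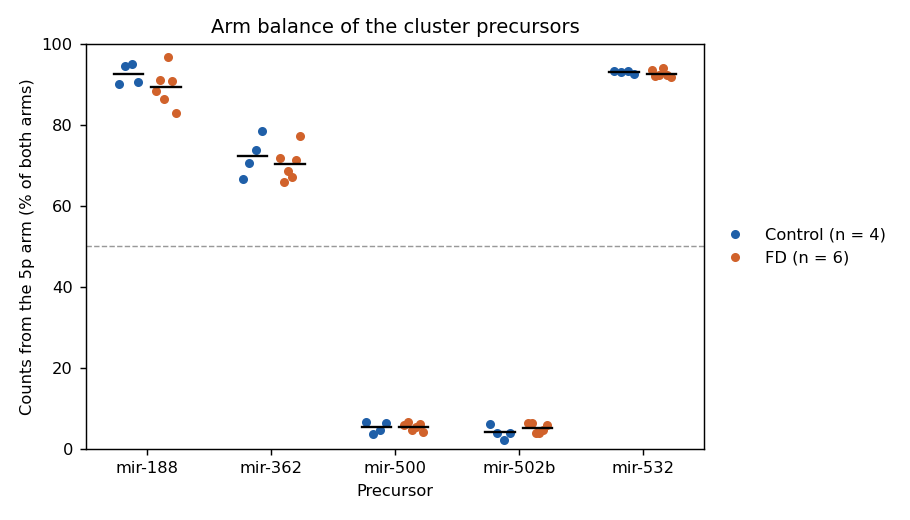
Share of the counts of a precursor that came from its 5p arm (percent of both arms), with 1 point per Control (n = 4) or FD (n = 6) library, black lines at the group means and a dashed line at equal counts. mir-532, mir-188 and mir-362 lie above the line and mir-500 and mir-502b below it in every library.

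The dominant arm was the same in 10 of 10 libraries for each of the 5 precursors (two-sided exact sign-flip permutation test, p = 0.00195, adjusted p = 0.00211). The adjusted p was under 0.05 for 5 of 5 here and for 96.2% of the 264 precursors of the whole table, and with 5p higher for 3 of 5 here and 53.4% there. The same arm was higher in every library for 92.4% of the 264, so a steady dominant arm is common in this table. The log2 ratio of 5p to 3p was steadiest for mir-532, at 3.70 ± 0.165 (SD, n = 10), while that of mir-188 was 3.27 ± 0.708. The minor arm had 122 to 313 counts per library for mir-532 and 3 to 18 for mir-188, so the spread of mir-188 includes more counting error. The median SD over the 264 precursors was 0.515. By diet, the log2 ratio of mir-188 was 3.53 ± 0.522 over Control (SD, n = 4) and 3.09 ± 0.804 over FD libraries (SD, n = 6), and that of mir-500 was -4.19 ± 0.421 and -4.12 ± 0.263. The ranges of the diets overlapped for each of the 5 precursors. No arm ratio could be formed for miR-660, listed with a 5p miRNA alone, or for miR-502a, listed with a 3p miRNA alone.

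The study compared the diets to learn which miRNA of the gland follow nutrition. miR-660-5p had 6399, 7942, 8935 and 7514 normalized counts in Control libraries L01, L04, L06 and L10, and between 5554 and 6796 in FD libraries, with a median of 6125. Libraries L04, L06 and L10 lay above the whole FD range, and L01 lay within it. Control averaged 7698 ± 1050 (SD, n = 4) and FD 6144 ± 483 (SD, n = 6). The log2 fold change (FD over Control) was -0.34, with a standard error of 0.122.

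miR-188-5p had 87.1, 117, 137 and 129 normalized counts in the Control libraries in the same order, and between 65.1 and 97.9 in FD libraries, with a median of 79.3. Again L01 was the Control library inside the FD range, and 4 FD libraries of 6 were below L01, the lowest of Control. The log2 fold change was -0.55 (standard error 0.182), the furthest from 0 in the cluster. The counts behind it were low, from 61 to 159 per library before normalization.

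miR-500-3p, which is made from the same stretch of the X chromosome as miR-660-5p, showed the same arrangement. It had 2766, 3440, 4093 and 3734 normalized counts in Control libraries, and between 2245 and 3052 in FD libraries with a median of 2893. Its log2 fold change was -0.38 (standard error 0.151). miR-532-5p had 2337, 2631, 3124 and 2267 normalized counts in Control libraries and between 1971 and 2506 in FD libraries, with a median of 2230. Only L04 and L06 lay above the FD range there. Its log2 fold change was -0.22 (standard error 0.133), -0.10 without L06 and -0.33 without L10. L06 and L01 also moved the others most: without L06 and without L01, miR-660-5p had -0.24 and -0.43. In the same order miR-500-3p had -0.28 and -0.49, and miR-188-5p had -0.45 and -0.68.

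Among the less abundant miRNA, the log2 fold change was -0.25 (standard error 0.189) for miR-502b-3p, with 191 to 313 normalized counts in Control and 172 to 252 in FD libraries. For miR-500-5p it was -0.30 (standard error 0.227), with 132 to 254 and 112 to 211. For miR-532-3p it was -0.14 (standard error 0.161), with 169 to 223 and 140 to 217. In these 3 the ranges of the diets overlapped, and single libraries moved the values by over 1.5 times. miR-502b-3p had -0.38 without L01 and -0.15 without L06, and miR-500-5p had -0.47 without L04 and -0.18 without L10. miR-532-3p had -0.044 without L06, -0.07 without L07 and -0.22 without L08.

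The sign of the difference was not steady for the miRNA of mir-362. miR-362-5p had 91.2, 99.1, 115 and 190 normalized counts in Control libraries and between 93.6 and 137 in FD libraries. Its log2 fold change of -0.20 (standard error 0.218) rested on L10, the Control library at 190, and was 0.043 without it, while it was -0.32 without L01, -0.31 without L04 and -0.34 without L08. miR-362-3p had 40.6 to 51.9 in Control and 28.9 to 61.4 in FD libraries. Its log2 fold change was 0.04 (standard error 0.217), and the sign turned without L03, L04 or L08. The 3 miRNA that were not tested had at most 20 counts per library and are not compared.

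**Figure D3:**
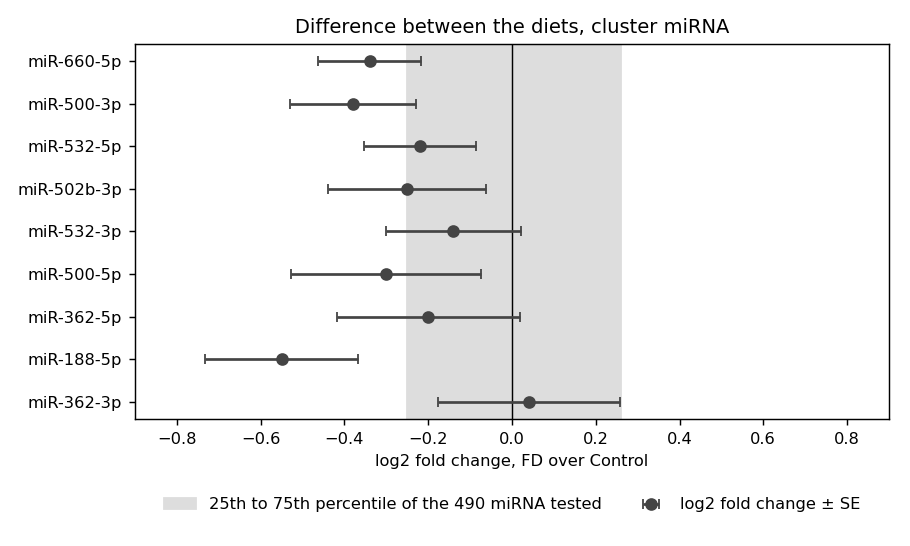
log2 fold change (FD over Control, from edgeR) with its standard error for the 9 cluster miRNA tested, from the most abundant at the top. The grey band spans the 25th to 75th percentile of the 490 miRNA tested, from -0.25 to 0.26, and the cluster values run from -0.55 for miR-188-5p to 0.04 for miR-362-3p.

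In all, 8 of the 9 cluster miRNA tested had a log2 fold change below 0, with a median of -0.25, beside 50.0% of the 490 miRNA tested and a median of 0.00. In edgeR's test, adjusted after Benjamini and Hochberg, 0 of the 9 had an adjusted p under 0.1, beside 0 of the 490 (0.0%). DESeq2's Wald test also gave 0 of the 9, beside 27 of 489 (5.52%). The paper's own DESeq2 analysis listed miR-660-5p and miR-188-5p as lower in FD goats at the same threshold. It used an earlier version of DESeq2 and another set of tested miRNA. At an unadjusted p under 0.05 and lower in FD libraries there were 3 of the 9 in edgeR's test (miR-660-5p, miR-188-5p and miR-500-3p), beside 8.16% of the 490, and 0 of the 9 were higher, beside 7.55% (15.7% in either direction). The diets were without overlap for 0 of the 9. Over the 490, all FD values were below all Control values for 1.02% and above them for 1.22%. As this contrast led to the choice of the cluster, nothing is read from these counts.

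The summed level of the cluster was 12305, 14857, 17178 and 14662 normalized counts in Control libraries L01, L04, L06 and L10. In FD libraries it lay between 10800 and 12821, with a median of 11900. L04, L06 and L10 therefore stood above every FD library, and L01 did not. Over 14 alternatives of test, scaling, filter or library left out, the median log2 fold change of the cluster lay between -0.34 and -0.17, and between 7 and 9 of its 9 miRNA were below 0. miR-660-5p held 51.6% of the counts of the cluster, and the median includes both miRNA behind its choice. Nothing is therefore read from the sum or the median.

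Other cells of the gland were followed through miRNA listed by name. The 11 epithelial miRNA tested (the miR-200 family, miR-205, miR-203, miR-184 and miR-375) had a median log2 fold change of -0.18, and their summed level ran from 221822 to 245827 in Control and from 173961 to 243962 in FD libraries. The 3 erythroid miRNA tested (miR-451 and miR-144) had a median of 0.33, with sums of 3750 to 6061 and 5961 to 8756. The 7 miRNA listed for white blood cells (among them miR-146b, miR-223, miR-142 and miR-150) had 0.67, with sums of 35952 to 68420 and 42674 to 132239. Both arms of miR-126, a miRNA of the vessel wall, were tested and had a median of 0.34, with sums of 117544 to 144955 and 136542 to 197735. The 8 stromal miRNA tested (among them miR-143, miR-145 and miR-199) had 0.28, with sums of 690407 to 928572 and 579433 to 1136233. In edgeR's test 0 of these 31 miRNA had an adjusted p under 0.1, and at an unadjusted p under 0.05 there were 4 of the 7, 1 of the 3, 2 of the 2 and 0 of the 8 higher in FD libraries, in the order white blood cells, erythroid, endothelial and stromal. Among the 11 epithelial miRNA 2 were lower and 1 was higher. Over the 490 miRNA tested 7.55% were higher and 8.16% lower at that threshold. None of the listed miRNA was at 0 in all libraries. The part of these cells in the lower values of the cluster was not tested.

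The most abundant of these miRNA were as follows. miR-141-3p, of the miR-200 family, had a mean normalized count of 128297 ± 1670 over Control (SD, n = 4) and 120582 ± 18700 over FD libraries (SD, n = 6), next to miR-200b-3p (log2 fold change -0.34, standard error 0.150) and miR-205-5p (0.41, standard error 0.314). The labelled tissue thus carried the miRNA of mammary epithelium. miR-146b-5p, miR-155-5p and miR-150-5p led the list of white blood cells, with log2 fold changes of 0.37, -0.12 and 0.87. miR-146b-5p made up most of the sum of that list. Its mean was 44428 of 57069 over Control and 58006 of 75109 over FD libraries. Which cells of the gland it came from was not tested, so that sum is not a measure of white blood cells alone. miR-451-5p, which is rich in red blood cells, had 0.46 (standard error 0.153), with 0.33 for miR-144-3p and 0.30 for miR-144-5p. The values were 0.31 for miR-126-5p and 0.37 for miR-126-3p. Of the stromal miRNA, miR-143-3p had 0.11, miR-145-5p -0.15 and miR-199b-5p 0.46. miR-143-3p made up most of the stromal sum, with a mean of 722366 of 756168 over Control and 790695 of 823815 over FD libraries. miR-451-5p made up most of the erythroid sum, with 4957 of 5075 and 6855 of 7004. These sums thus mostly follow 1 miRNA each.

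A list of 46 other miRNA names known from the human X chromosome served as a second comparison. The ARS1.2 table has 14 of these on the goat X chromosome, 6 elsewhere and 6 without a chromosome. It places none of the remaining names on the goat X chromosome, so the list is one of human X names. The list includes miR-223, which is also in the list of white blood cells. Of its 31 miRNA tested, 25 had a log2 fold change above 0 and 6 below, with a median of 0.19, against -0.25 in the cluster. In edgeR's test 0 of the 31 had an adjusted p under 0.1, and at an unadjusted p under 0.05 there were 6 higher (19.4%) and 1 lower in FD libraries, beside 7.55% and 8.16% of the 490. The 3 most abundant were miR-98-5p (log2 fold change 0.06, standard error 0.135), miR-1468-5p (0.14, standard error 0.197) and miR-221-3p (0.93, standard error 0.359, adjusted p = 0.269 in edgeR's test). Whether the cluster differs from this list was not tested.

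The spread between goats of the same diet enters any comparison of the diets, so it is given as a description. After removal of the diet means, the SD of the log2 level ran from 0.152 for miR-660-5p to 0.375 for miR-500-5p, with a median of 0.256, beside 0.344 over the 490 miRNA tested. miR-660-5p was at percentile 4.5 of these SDs and miR-532-5p at 6.3. A small SD of miR-660-5p favoured its choice, so nothing is read from its place. The counts of both were high, and the spread of miRNA with low counts includes more counting error.

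**Figure D4:**
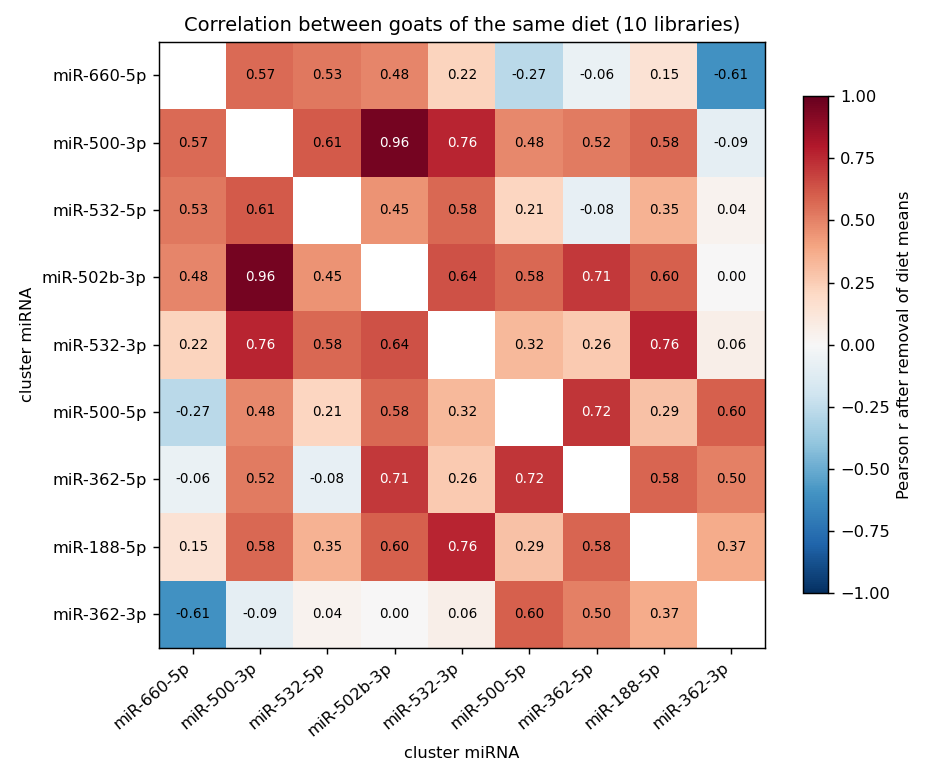
Pearson correlation, over the 10 libraries and after removal of the mean of each diet, for the 36 pairs of the 9 cluster miRNA tested, on a colour scale from -1 to 1. The highest value is 0.96 (miR-500-3p with miR-502b-3p) and the lowest -0.61 (miR-660-5p with miR-362-3p).

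The 36 pairs of cluster miRNA had a median Pearson correlation of 0.483 within diets, and 31 of them (86.1%) were above 0. Over the 119805 pairs of miRNA tested the median was 0.00 and 50.0% were above 0. Over the 7503 pairs of miRNA with a mean above 1000 the median was 0.015. All pairs share the same libraries and scaling. The median of the cluster was 0.325 without L01 and between 0.392 and 0.553 without any other single library, while that of all pairs stayed between -0.003 and 0.002.

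Single pairs were tested by exact permutation of the libraries within diets. At an unadjusted p under 0.05, 5 of the 36 pairs were positive and 1 was negative, beside 4.82% and 4.45% of all pairs. Adjusted over the 119805 pairs, 0 of the 36 and 0 of all pairs (0.0%) passed 0.05, and the smallest adjusted p over all pairs was 0.277, so single correlations could not be called at this number of libraries.

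The highest correlation was that of miR-500-3p and miR-502b-3p, the sequences shown above that differ at 1 of 21 positions. It was 0.958 (exact permutation p = 0.00313, adjusted p = 0.348, Spearman 0.818 with exact permutation p = 0.0108). Without L01 and L05, the libraries farthest from the median of miR-500-3p after removal of the diet means, it was 0.889. For each pair below, the libraries left out together were chosen in the same way from the more abundant miRNA alone. miR-500-3p outnumbered miR-502b-3p by 11.5 to 14.5 times in every library, with a median of 12.4, and the SD of their log2 ratio (0.113) was the smallest of all 36 pairs. Reads with 1 sequencing error could be counted for the other of these miRNA, depending on the mismatches allowed. miR-502a-3p, which differs from miR-500-3p at 1 of 20 positions, had 10 counts over all libraries, beside 31356 for miR-500-3p and 2492 for miR-502b-3p. How many reads were exchanged was not tested, so the levels of miR-500-3p and miR-502b-3p are uncertain by an amount that was not measured.

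Next came miR-532-3p with miR-188-5p at 0.760 (exact permutation p = 0.0187, adjusted p = 0.450, Spearman 0.782 with exact permutation p = 0.0201). It was 0.704 without L03 and L07. miR-500-3p with miR-532-3p had 0.758 (exact permutation p = 0.0188, adjusted p = 0.451, Spearman 0.758 with exact permutation p = 0.0191), and 0.777 without L01 and L05. These pairs link different precursors, whose sequences differ at 13 and 12 of 21 positions.

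At the other end, miR-660-5p and miR-362-3p had -0.606 (exact permutation p = 0.0213, adjusted p = 0.463, Spearman -0.842 with exact permutation p = 0.00411), and -0.854 without L01 and L06. miR-660-5p and miR-500-5p had -0.271 (exact permutation p = 0.492, adjusted p = 0.865, Spearman -0.370 with exact permutation p = 0.329), and -0.430 without L01 and L06. miR-500-3p and miR-362-3p had -0.089 (exact permutation p = 0.825, adjusted p = 0.965, Spearman -0.309 with exact permutation p = 0.404), and -0.123 without L01 and L05. miR-362-3p had the lowest median correlation with the other members (0.049), followed by miR-660-5p (0.186), while miR-502b-3p and miR-500-3p had the highest (0.586 and 0.572).

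miR-660-5p and miR-188-5p, the members behind the choice of the cluster, had a correlation of 0.148 within diets (exact permutation p = 0.726, adjusted p = 0.940, Spearman -0.115 with exact permutation p = 0.770). Its sign rested on Control libraries L01, low in both miRNA, and L06, high in both. With any 1 library left out, the correlation ran from -0.540 (without L01) to 0.327 (without L08). It was -0.830 without L01 and L06, the libraries farthest from the median of miR-660-5p. L04 and L10 were then the only Control libraries, so no direction is read from these values.

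**Figure D5:**
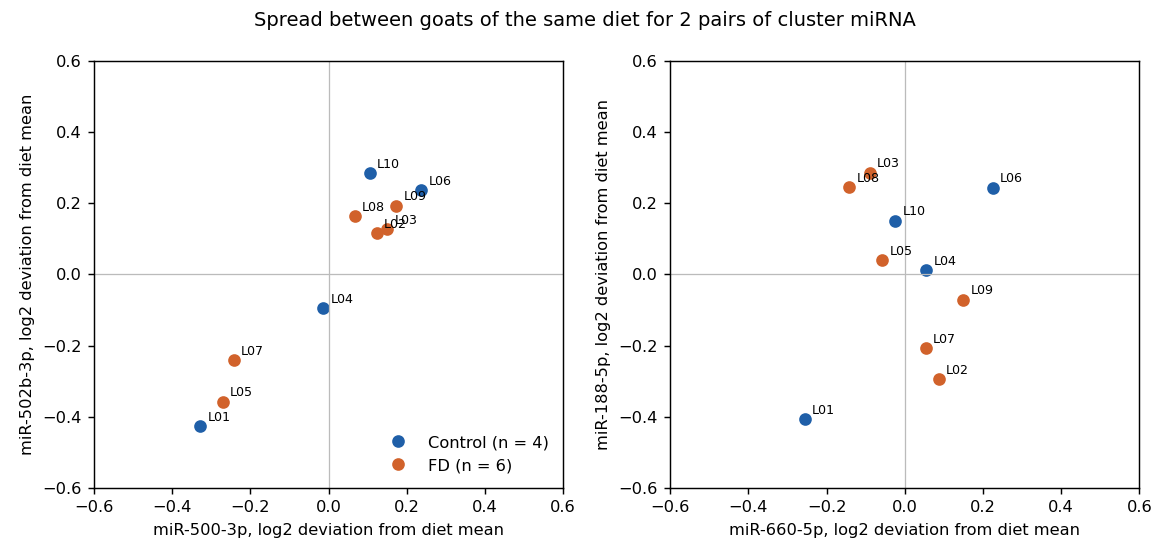
log2 deviation of each library from the mean of its diet, for miR-500-3p against miR-502b-3p (left) and miR-660-5p against miR-188-5p (right), with Control (n = 4) and FD (n = 6) libraries named. On the left the points follow a rising line (r = 0.958). On the right L01 and L06 lie at the lower left and upper right of a cloud that falls without them. There r was 0.148 with all libraries, and -0.830 without L01 and L06 and with the diet means taken again.

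The arms of 1 precursor had correlations near the median of all member pairs (0.483). miR-532-5p with miR-532-3p had 0.577 (exact permutation p = 0.0783, adjusted p = 0.587, Spearman 0.442 with exact permutation p = 0.229), and 0.394 without L05 and L06. miR-362-5p with miR-362-3p had 0.502 (exact permutation p = 0.053, adjusted p = 0.544, Spearman 0.418 with exact permutation p = 0.231), and 0.365 without L08 and L10. miR-500-3p with miR-500-5p had 0.482 (exact permutation p = 0.182, adjusted p = 0.692, Spearman 0.358 with exact permutation p = 0.348), and 0.522 without L01 and L05. The median over the 114 arm pairs of the whole table with both arms tested was 0.566.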

How the data were processed

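Small RNA libraries (TruSeq Small RNA, Illumina, single-end) were made from the mammary gland of 4 Control and 6 food deprived (FD) goats, 1 library per goat. The counts are the deposited numbers of reads per mature miRNA. To make them, the authors called bases with CASAVA 1.8.2, removed adapters with Cutadapt, kept reads of 17 to 28 nt, aligned them to goat assembly CHIR_1.0, counted them on known and predicted precursors with miRDeep2's quantifier, and removed redundant miRNA. The number of mismatches allowed in counting is not given in the sources used here. No molecular identifiers are described, so floors cover counting error only. The deposited columns of normalized values and the table of predicted precursors were not used here.

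Normalized counts are counts divided by median-of-ratios size factors over the miRNA with a count in every library. Of the 1804 miRNA, 490 reached more than 28 in at least 1 library and were tested. The diets were compared over all of them with edgeR's quasi-likelihood test (TMM, two-sided, diet alone in the model). The threshold was 0.1 after Benjamini-Hochberg adjustment. Standard errors are the size of a log2 fold change divided by the square root of F. Levels and arms were compared with two-sided exact sign-flip permutation tests over the 10 libraries (pseudocount 1 in log2 values and in arm ratios). Correlations were computed on log2(normalized count + 1) after subtracting the mean of each diet, with all 17280 orders of the libraries within diets as an exact permutation test. These used a threshold of 0.05, adjusted over every neighbour, precursor or pair of the whole table. For levels, the 11 neighbouring pairs of the cluster were added to those of the whole table.

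The members, the lists of other miRNA and the tests were chosen with earlier results of these data known. Every cluster miRNA was to be named. Of the pairs, the rule named the 3 highest and 3 lowest correlations, miR-660-5p with miR-188-5p, and both arms of a precursor. It also named the 5 miRNA most like the cluster mean and the 3 most abundant miRNA of each list. The alternatives were DESeq2 without independent filtering, size factors or library totals as scaling, other filters and pseudocounts, and each library left out in turn. Scripts were tested on simulated data. Between goats of 1 diet the chi-square per degree of freedom was at least 102, more than sampling noise gives. Fits ran in edgeR 4.0.16 and DESeq2 1.42.0 (R 4.3.3), permutation tests in numpy 2.4.6 and scipy 1.17.1 (Python 3.11.15), and figures were drawn with matplotlib 3.10.9.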

Additional observations from a re-analysis of the deposited data

How the results depend on the processing

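Over all 490 miRNA, 0 had an adjusted p under 0.1 in edgeR's test. DESeq2's Wald test gave 27, and edgeR without a filter gave 5 over all miRNA with any count. Leaving out 1 library gave between 0 and 1, the 1 being without L02. The causes were not tested. The cluster miRNA called by diet stayed at 0 in each of the 15 alternatives. Of 126 recomputed fold changes of cluster miRNA, 122 kept their direction. The other 4 were miR-362-5p without Control library L10 (log2 fold change 0.043), and miR-362-3p without FD library L03 (-0.038), without Control library L04 (-0.019) and without FD library L08 (-0.08). With 1 library left out they ranged from -0.34 to 0.043 for miR-362-5p and from -0.08 to 0.13 for miR-362-3p. With both arms required above the threshold, 3 cluster precursors were left and 3 passed, since fewer were tested. The counts of neighbouring levels and of pairs that passed stayed at 0, and the median of each list kept its sign with any 1 library left out. Counting error is a larger share of the spread for miRNA with few counts, such as those of mir-362. No paired analysis was possible because each goat gave 1 library and the labels pair no Control goat with an FD goat.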

Other observations

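The 5 miRNA outside the cluster whose levels followed its mean most closely within diets, over the 10 libraries, were chr19_27064-3p (Pearson correlation 0.873), chr13_18298-5p (0.771), chrX_39346-3p (0.740), miR-1307-3p (0.718) and miR-19b-3p (0.704). The first 3 are predicted miRNA, named by the position of their precursor, with mean normalized counts of 26.5, 19.3 and 65.5, and miR-19b-3p, of the miR-17-92 cluster, had 22350. Their log2 fold changes (FD over Control) were -0.28, -0.37, 0.21, 0.19 and -0.33, with standard errors of 0.267, 0.386, 0.351, 0.177 and 0.187. They were picked as the highest of all non-members, so these correlations are a description.

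Outside the cluster, 1 row of the table, the predicted miRNA chr4_5986-3p, shared 14 bases in a row with miR-500-3p and miR-502b-3p. It had 2 counts over all libraries.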
